A study of Mus musculus with 15 samples.

Results

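The insulin-like growth factor family was described in sorted cells of the embryonic mouse thalamus, across 5 groups defined by fluorescence and stage. Its 10 genes were the ligands Igf1 and Igf2, the receptors Igf1r and Igf2r, and the binding proteins Igfbp2, Igfbp3, Igfbp4, Igfbp5, Igfbp6 and Igfbpl1. A member was taken as the probe set (transcript cluster) annotated with that 1 gene, and the set with the highest mean where a gene had several. All 10 had 1 such row among 22180 genes, and all 10 lay above the filter on dim genes that left 16635 genes for testing. The family was picked because Igfbp4, Igfbp5 and Igfbpl1 had differed by population or stage on these same arrays, so the values of those 3 genes are given as a description with no test. The other 7 members were tested.

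Every embryo had the genotype Gbx2CreER-IRES-EGFP/+::R26lsl-tdTomato/+ on a C57BL/6 background, and so carried 1 modified Gbx2 allele in all groups, with no group free of it. Cre fused to an oestrogen receptor and EGFP are made from the Gbx2 locus, a homeobox gene of thalamic neurons. Tamoxifen lets the Cre switch on tdTomato for good in the cells that make it and in their descendants. Double-labelled, red and green cells were collected at E18.5 after 4 mg tamoxifen at E9. At E14.5, after 4 mg at E9.5, only red and green were collected, with 3 biological replicates a group and 15 arrays in all. The gates, and whether embryos were pooled, are not given in the sources used here. Stage, day of tamoxifen and any difference in how the arrays of each stage were run cannot be told apart. In sorted populations, fewer cells of a type and less RNA per cell cannot be told apart either.

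IGF1 and IGF2 are secreted growth factors that act through the receptor tyrosine kinase IGF1R, while IGF2R binds IGF2 and carries it to lysosomes. The IGF binding proteins hold the ligands outside the cell, and depending on the protein and on the proteases that cut it they limit or deliver them. IGFBPL1 is a secreted relative of these proteins that has been tied to axon growth of retinal ganglion cells in mice. In the developing brain the family is known for its effects on progenitor division, neuron survival and axon growth.

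Igfbp4 and Igfbp5 are the members whose levels by population and by stage are described in most detail, and Igfbp2 is the tested member that differed between populations. The 250 bases before their annotated starts are shown for that reason, from RefSeq on assembly GRCm38.p6 (for Igfbp2, the entry with the lower coordinate). The Igfbp4 stretch is chr11:99040994-99041243 on the plus strand, the Igfbp5 stretch is chr1:72874866-72875115 on the minus strand, and the Igfbp2 stretch is chr1:72824230-72824479 on the plus strand. Capitals mark TATAAA, searched as the TATA box, and CANNTG, searched as the E-box.
Igfbp4: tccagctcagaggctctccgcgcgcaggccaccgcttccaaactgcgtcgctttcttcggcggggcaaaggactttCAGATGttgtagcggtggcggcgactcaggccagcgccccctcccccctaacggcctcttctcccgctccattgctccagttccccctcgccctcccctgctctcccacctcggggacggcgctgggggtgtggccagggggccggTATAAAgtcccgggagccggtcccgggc
Igfbp5: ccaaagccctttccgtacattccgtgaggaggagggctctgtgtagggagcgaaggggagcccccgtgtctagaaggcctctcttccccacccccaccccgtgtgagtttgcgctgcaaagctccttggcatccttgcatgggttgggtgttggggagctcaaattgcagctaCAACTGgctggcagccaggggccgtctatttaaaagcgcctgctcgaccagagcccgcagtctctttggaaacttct
Igfbp2: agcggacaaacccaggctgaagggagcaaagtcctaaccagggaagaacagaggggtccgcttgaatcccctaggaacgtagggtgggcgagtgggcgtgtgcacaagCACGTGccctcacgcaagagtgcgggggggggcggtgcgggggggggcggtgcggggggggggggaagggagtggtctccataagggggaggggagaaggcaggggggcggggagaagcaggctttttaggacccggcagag
Igfbp4 has TATAAA 28 bases upstream of the start and CANNTG 174 bases upstream. Igfbp5 has CANNTG 77 bases upstream and no TATAAA in this window. Igfbp2 has CANNTG 142 bases upstream and no TATAAA, and it has 3 matches to GGGCGG, the GC box, between 113 and 37 bases upstream. Their GC contents were 69.2% for Igfbp4, 58.8% for Igfbp5 and 67.2% for Igfbp2. Of 32851 promoters of this length, 12.4% hold TATAAA, 66.2% hold CANNTG and 32.7% hold GGGCGG, both strands searched. Of the 9 members in the table, 2, 8 and 4 hold them in at least 1 entry. The percentages count each promoter entry, so a member with several entries is not on a like footing. No matches to different motifs overlap in these windows. TAATTA, the core bound by many homeodomain proteins, is in 4.84% of promoters and in 0 of these 9. Igfbp2 and Igfbp5 are neighbours on chromosome 1, with no protein-coding gene annotated between them.

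Levels are log2 signals as deposited unless said otherwise, SDs are over 3 arrays, and SEs come from limma's model over all arrays. The mean of all values was 6.17 to 6.19 on the E18.5 arrays and 5.63 to 5.65 on the E14.5 arrays, so comparisons between stages were made after the medians of the arrays over the tested genes had been set equal. At E18.5, replicate 1 of the red and of the double-labelled cells had a narrower range of values (SD 1.34 and 1.31) than the other E18.5 arrays (1.44 to 1.51). Gbx2 was 8.33 ± 0.29 in double-labelled, 6.35 ± 0.86 in red and 8.43 ± 0.17 in green cells at E18.5. At E14.5 it was 7.30 ± 0.03 in red and 8.07 ± 0.17 in green cells. The sort itself used EGFP made from this locus. The 25 markers of meninges, choroid plexus, endothelial cells and pericytes had group means of 4.65 to 6.22 in double-labelled, 4.62 to 6.09 in red and 4.54 to 6.59 in green cells at E18.5. At E14.5 the range was 4.39 to 5.25 in red and 4.39 to 5.29 in green cells. The table holds no detection calls, so which of these genes were at background is not known. As deposited, Igf1, Igfbp5 and Igfbp6 in both E14.5 groups and Igf2 in E14.5 green cells had means under 5.07, the level of the filter on dim genes, and passed it through their E18.5 levels.

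**Figure D1:**
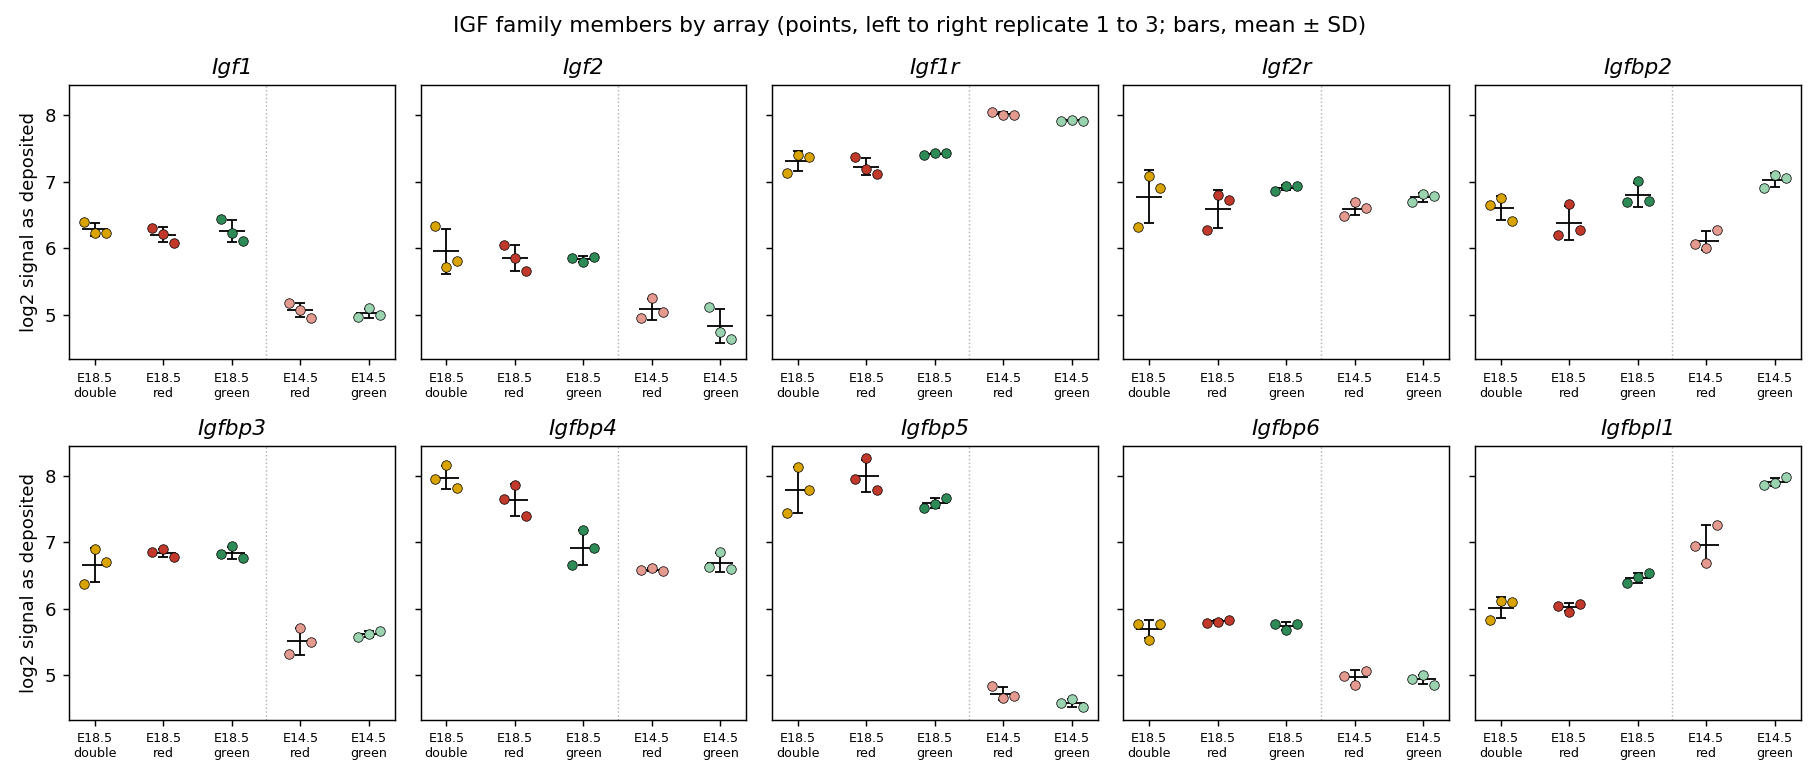
Level of each family member on every array, in log2 signal as deposited, with the 3 arrays of a group as points and bars for their mean ± SD, for the 3 populations of E18.5 and the 2 of E14.5. Igfbp4 was at 7.39 to 8.16 on the double-labelled and red E18.5 arrays, all above the E18.5 green arrays at 6.66 to 7.19, and Igfbpl1 was at 7.87 to 7.98 on the E14.5 green arrays, above the arrays of the other 4 groups.

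Igf1, which signals through Igf1r, was at 6.40, 6.22 and 6.22 in double-labelled cells, 6.30, 6.21 and 6.08 in red cells and 6.44, 6.22 and 6.11 in green cells at E18.5. Its E14.5 levels were 5.17, 5.07 and 4.96 in red cells and 4.97, 5.09 and 4.99 in green cells. The 3 E18.5 groups overlapped each other, as did the 2 E14.5 groups. With medians equal, Igf1 was higher at E18.5 than at E14.5 in red cells by 0.48 ± 0.12 log2 (SE, 1.40-fold) and in green cells by 0.54 ± 0.12 (1.46-fold). These stage differences are given with no test, since Igf1 passed the filter on dim genes through its E18.5 levels, although Igf1 is among the members counted below. The red difference was 0.41 without E14.5 red replicate 3, and Igf1 then left the count of members passing. With no filter on dim genes the Igf1 stage differences were 0.46 in red and 0.58 in green cells. Red minus green was -0.06 at E18.5 (limma adjusted p = 0.832) and 0.05 at E14.5 (adjusted p = 0.975).

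Igf2, an imprinted gene expressed from the paternal copy in most tissues, ranged from 5.71 to 6.34 in double-labelled, 5.66 to 6.04 in red and 5.79 to 5.87 in green cells at E18.5. At E14.5 it ranged from 4.94 to 5.25 in red cells and from 4.63 to 5.11 in green cells. With medians equal, each group overlapped the next in the order of levels. No comparison of Igf2 passed in the reported fit. The E18.5 minus E14.5 difference was 0.12 in red cells (limma adjusted p = 0.687) and 0.31 in green cells. The green stage difference is given with no test, since Igf2 was under the filter level in E14.5 green cells and passed through its E18.5 levels. Igf2 is still among the members counted below. On values as deposited both passed, at 0.77 in red and 1.01 in green cells, in the direction of the shift between the stages' arrays. With medians equal and weights for array quality, the green difference was 0.33.

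Igf1r, the signalling receptor, was at 7.13, 7.40 and 7.38 in double-labelled cells, 7.37, 7.19 and 7.12 in red cells and 7.41, 7.43 and 7.43 in green cells at E18.5. The E14.5 levels were 8.04, 8.01 and 8.00 in red cells and 7.91, 7.93 and 7.91 in green cells. The E14.5 arrays were all above the E18.5 arrays already as deposited, against the shift between the stages. With medians equal, Igf1r fell by 1.44 log2 in E18.5 red cells relative to E14.5 red cells (SE 0.10, 2.72-fold, limma adjusted p = 3.25e-07). In green cells the E18.5 minus E14.5 difference was -1.19 (SE 0.10, 2.29-fold lower, limma adjusted p = 5.97e-07). Between populations the groups of 3 did not overlap for red against green at either stage, as for 15.3% of all tested genes at E18.5 and 27.9% at E14.5. Red was lower at E18.5 by a difference of -0.20 (limma adjusted p = 0.519) and higher at E14.5 by 0.10 (adjusted p = 0.877), and neither difference passed the test. The difference between these differences was -0.29 (limma adjusted p = 0.576).

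Igf2r, the clearance receptor for IGF2 and itself imprinted in mice, was at 6.32, 7.08 and 6.91 in double-labelled cells, 6.26, 6.79 and 6.72 in red cells and 6.86, 6.93 and 6.93 in green cells at E18.5. At E14.5 it was at 6.49, 6.69 and 6.60 in red cells and 6.69, 6.82 and 6.79 in green cells. The lowest value of both E18.5 red and double-labelled cells was replicate 1, the array with the narrow range. With medians equal, Igf2r was lower at E18.5 than at E14.5, by a difference of -0.65 ± 0.16 in red cells (SE, 1.57-fold, limma adjusted p = 0.00943) and of -0.55 ± 0.16 in green cells (1.47-fold, adjusted p = 0.0164). On values as deposited these differences were -0.00 in red and 0.14 in green cells, so the direction for Igf2r depends on the scaling. The green call was also lost with no filter on dim genes (limma adjusted p = 0.0569), relative to genes of similar level (0.0581), without E18.5 green replicate 1 (0.0545) and without E14.5 green replicate 2 (0.0588). Red minus green was -0.32 at E18.5 (limma adjusted p = 0.533), or -0.15 without E18.5 red replicate 1, and -0.17 at E14.5 (adjusted p = 0.875).

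Igfbp2, a binding protein made by neural progenitors and glia, was at 6.06, 6.01 and 6.27 in red cells and 6.91, 7.10 and 7.06 in green cells at E14.5. Every E14.5 red array was below every E14.5 green array. The difference was -0.91 ± 0.15 log2 (SE, 1.88-fold lower in red, limma adjusted p = 0.00255), and it stayed between -0.99 and -0.85 under the 15 other settings, with an adjusted p of at most 0.0200. Igfbp2 was the 1 of 7 tested members called in this comparison, where 3.52% of all tested genes were called and the groups of 27.9% of genes did not overlap. The same E14.5 green arrays had more of the proliferation marker Mki67, at 5.37 ± 0.13 in red and 6.54 ± 0.22 in green cells. Of 11 markers of radial glia and progenitors, 1 was higher in red (Slc1a3) and 3 lower (Mki67, Top2a and Nes), and of 11 markers of immature neurons 2 were lower (Nhlh1 and Neurod1), with these names given after their values were seen. The summed signal of the progenitor list, on the linear scale, was 2242 to 2476 in red and 2790 to 2898 in green cells, and that of the immature-neuron list was 9625 to 9872 in red and 8478 to 9008 in green cells. Hbb-y, an embryonic globin of red blood cells, was 6.61 ± 0.51 in E14.5 red and 5.15 ± 0.09 in E14.5 green cells, and was likewise named after its values were seen. The part of these cells in the Igfbp2 difference was not tested.

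At E18.5 Igfbp2 was at 6.65, 6.75 and 6.40 in double-labelled cells, 6.20, 6.66 and 6.27 in red cells and 6.70, 7.01 and 6.70 in green cells. Red lay below green on all arrays, with a difference of -0.43 (95% interval -0.74 to -0.12, limma adjusted p = 0.323), which did not pass over all genes. Groups did not overlap for 15.3% of all tested genes in this comparison. The double-labelled minus green difference was -0.20 (limma adjusted p = 0.840), and the change of the red-green difference between stages, 0.48, had a limma adjusted p of 0.474. With medians equal, Igfbp2 was lower at E18.5 than at E14.5 in green cells by a difference of -0.92 ± 0.14 (SE, 1.89-fold, limma adjusted p = 0.000182). In red cells the stage difference was -0.39, with no overlap (as for 39.4% of all tested genes) and a limma adjusted p of 0.060. On values as deposited the green difference was -0.22 (limma adjusted p = 0.181) and the red one 0.26 (adjusted p = 0.115), so the green call and the red direction depend on the scaling.

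Igfbp3, the main carrier of IGFs in serum, was at 6.38, 6.89 and 6.70 in double-labelled cells, 6.85, 6.89 and 6.77 in red cells and 6.82, 6.94 and 6.76 in green cells at E18.5. At E14.5 it was at 5.32, 5.72 and 5.50 in red cells and 5.58, 5.62 and 5.67 in green cells. With medians equal, it was higher at E18.5 than at E14.5 in red cells by 0.68 ± 0.13 (SE, 1.60-fold, limma adjusted p = 0.00152) and in green cells by 0.52 ± 0.13 (1.44-fold, adjusted p = 0.00536). Within a stage the populations overlapped. Igfbp6, which prefers IGF2, ranged from 5.54 to 5.84 over all E18.5 arrays and from 4.85 to 5.06 over all E14.5 arrays. With medians equal its stage difference was 0.19 in red cells and 0.11 in green cells. On values as deposited these differences were 0.84 and 0.80, in the direction of the shift. They are given with no test, since Igfbp6 passed the filter on dim genes through its E18.5 levels. Igfbp6 is still among the members counted below.

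Igfbp4, a binding protein known mainly as an inhibitor of IGF action that the protease PAPP-A cuts, was at 7.95, 8.16 and 7.81 in double-labelled cells, 7.65, 7.87 and 7.39 in red cells and 6.66, 7.19 and 6.91 in green cells at E18.5. Every array with tdTomato-labelled cells was above every green array, and the double-labelled and red arrays overlapped. Between arrays of the same replicate number, which pair these 2 populations, double-labelled was above red by 0.30, 0.29 and 0.42. The double-labelled minus green difference was 1.05 ± 0.15 log2 (SE, 2.07-fold), the red minus green difference 0.72 ± 0.15 (1.64-fold) and the double-labelled minus red difference 0.34 ± 0.15 (1.26-fold). Groups did not overlap for 8.15% of all tested genes in double-labelled against green, 15.3% in red against green and 4.18% in double-labelled against red. At E14.5 Igfbp4 was at 6.58, 6.62 and 6.57 in red cells and 6.63, 6.85 and 6.60 in green cells, which overlapped, with a red minus green difference of -0.11 ± 0.15. The red-green difference was thus 0.82 ± 0.21 larger at E18.5 than at E14.5 (SE), a value given with no test. Without the narrow-range replicate 1 of the double-labelled and red cells, Igfbp4 differed by 1.06 for double-labelled minus green, 0.71 for red minus green and 0.36 for double-labelled minus red. Over all arrays left out in turn, the double-labelled minus red difference ran from 0.21 (without E18.5 red replicate 3) to 0.45 (without E18.5 red replicate 2).

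Across stages, with medians equal, Igfbp4 was 7.39 ± 0.22 in E18.5 red cells and 6.99 ± 0.06 in E14.5 red cells, a difference of 0.40 ± 0.15 (SE). In green cells it was 6.64 ± 0.27 at E18.5 and 7.11 ± 0.14 at E14.5, a difference of -0.47 ± 0.15 (SE). Neither pair of groups overlapped, as for 39.4% of all tested genes in red and 61.2% in green cells. The signs were opposite, with Igfbp4 higher at E18.5 in red and lower at E18.5 in green cells. On values as deposited the differences were 1.05 in red and 0.23 in green cells, so the direction in green cells depends on the scaling. The stage difference was larger in red than in green cells under both. The scalings differ by a like shift, 0.65 in red and 0.70 in green cells, so that order could hardly change. In the order of levels with medians equal, E18.5 green was lowest and apart from the next group, and double-labelled, red, E14.5 green and E14.5 red cells each overlapped their neighbour.

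Igfbp5, the binding protein with the most conserved sequence among vertebrates and a known product of developing muscle, bone and neurons, was at 7.44, 8.13 and 7.79 in double-labelled cells, 7.95, 8.27 and 7.79 in red cells and 7.52, 7.58 and 7.67 in green cells at E18.5. The E14.5 arrays gave 4.84, 4.66 and 4.69 in red cells and 4.58, 4.64 and 4.52 in green cells. All E18.5 arrays were above all E14.5 arrays by more than the shift between stages. Igfbp5 ranked among the dimmer genes at E14.5, at the 24.9 percentile of all genes in red and the 18.1 percentile in green cells, and whether it was above background there is not known. The stage folds are therefore ratios of array signal and not of transcript amounts. With medians equal, E18.5 exceeded E14.5 by 2.63 ± 0.14 in red cells (SE, 6.17-fold) and by 2.31 ± 0.14 in green cells (4.96-fold). Between populations the differences were smaller: red minus green was 0.41 ± 0.16 at E18.5 (1.33-fold) and 0.15 ± 0.16 at E14.5, with no overlap in either, and double-labelled overlapped both green (0.20 ± 0.16) and red cells (-0.22 ± 0.16). Of all tested genes, 15.3% had no overlap between red and green at E18.5 and 27.9% at E14.5. Without the narrow-range arrays the E18.5 differences of Igfbp5 were 0.44 for red minus green, 0.37 for double-labelled minus green and -0.07 for double-labelled minus red. Without double-labelled replicate 2 they moved the other way for that population, to 0.03 for double-labelled minus green and -0.39 for double-labelled minus red. Red minus green was 0.28 without E18.5 red replicate 2.

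Igfbpl1 was at 5.83, 6.12 and 6.11 in double-labelled cells, 6.04, 5.96 and 6.07 in red cells and 6.39, 6.48 and 6.53 in green cells at E18.5. At E14.5 it was at 6.94, 6.69 and 7.27 in red cells and 7.87, 7.89 and 7.98 in green cells. Green was above red on every array at both stages, and E14.5 above E18.5. Of all tested genes, 15.3% had no overlap between red and green at E18.5 and 27.9% at E14.5. Between stages, with medians equal, 39.4% had none in red and 61.2% in green cells. Red minus green was -0.95 ± 0.13 at E14.5 (SE, 1.93-fold lower in red) and -0.44 ± 0.13 at E18.5 (1.36-fold lower), and double-labelled minus green was -0.45 ± 0.13, while double-labelled and red cells differed by -0.00 ± 0.13. Without the narrow-range arrays the E18.5 differences of Igfbpl1 were -0.45 for red minus green and -0.35 for double-labelled minus green. With medians equal, the stage difference was -1.59 ± 0.12 in red cells (SE, 3.02-fold lower at E18.5) and -2.14 ± 0.12 in green cells (4.41-fold lower). On values as deposited it was -0.94 in red and -1.45 in green cells, so the direction held under both scalings. In the order of levels E14.5 green came first, then E14.5 red, E18.5 green, E18.5 red and double-labelled, each apart from the next except the last pair. Between E18.5 and E14.5 green cells 7 of 11 progenitor markers and 6 of 11 immature-neuron markers were lower at E18.5 and 1 immature-neuron marker was higher, where 20.1% of all tested genes were called lower and 13% higher. Between E18.5 and E14.5 red cells 3 progenitor markers were lower and 2 higher, and 7 immature-neuron markers were lower and 1 higher, where 13.3% of all tested genes were called lower and 9.9% higher. Their part in the stage differences of the members was not tested.

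**Figure D2:**
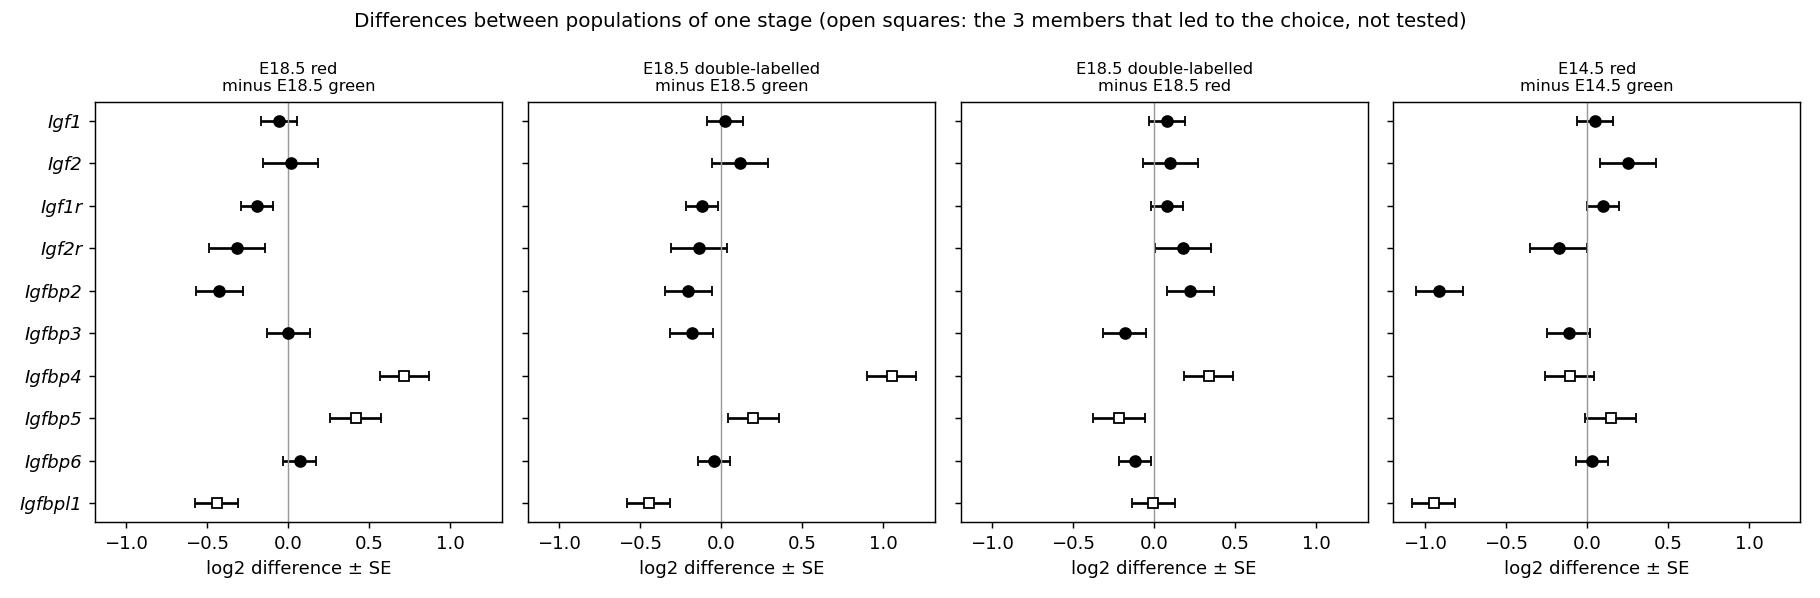
Log2 differences between populations within a stage, on the horizontal axis with bars of ± 1 SE from limma's model, for the 10 members on the vertical axis, with open squares for the 3 members given with no test. Igfbp4 stands at 1.05 for double-labelled minus green and 0.72 for red minus green at E18.5, and Igfbp2 and Igfbpl1 at -0.91 and -0.95 for red minus green at E14.5.

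Counted over the 7 tested members, 0 passed in red against green at E18.5, where 0.613% of all tested genes were called. In double-labelled against green 0 of 7 passed, against 0.0361% of all genes, and in double-labelled against red 0 of 7 passed, against 0.0902% of all genes, which is 15 genes, or 32 with the replicate number as a block. At an unadjusted p under 0.05 the counts over all genes were 1666, 949 and 752, and Igfbp2 in red against green was at an unadjusted limma p of 0.0107. With weights for array quality Igfbp2 passed in double-labelled against green, at -0.36 (limma adjusted p = 0.0290). Between E18.5 and E14.5 red cells 4 of 7 passed, Igf1 and Igfbp3 higher and Igf1r and Igf2r lower, against 23.2% of all genes (9.9% higher and 13.3% lower), and groups did not overlap for 39.4% of genes. Between E18.5 and E14.5 green cells 5 of 7 passed, the same 4 in the same directions and Igfbp2 lower, against 33.1% of all genes (13% higher and 20.1% lower), and groups did not overlap for 61.2% of genes. Both stage comparisons draw on different arrays. Igf1 is among the members passing in each, and Igfbp6 is among the 7 in each, as is Igf2 in the green one. These passed the filter on dim genes through their E18.5 levels, and those stage differences are given with no test. For the change of the red-green difference with stage, 0 of 7 passed, against 1.05% of all genes and 1490 genes at an unadjusted p under 0.05.

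**Figure D3:**
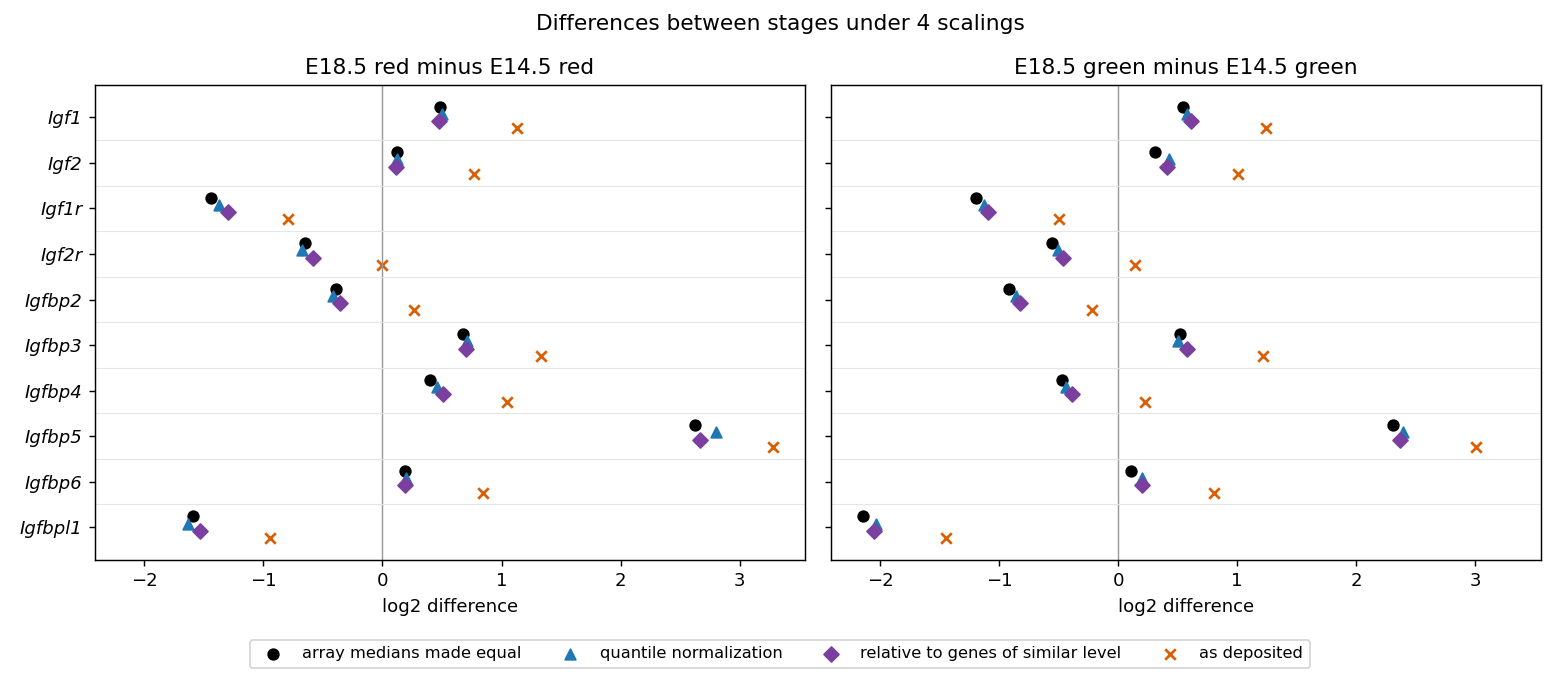
E18.5 minus E14.5 differences of the 10 members in red and green cells under 4 scalings of the arrays, in log2 units, with a marker shape for each scaling. Igfbp5, Igfbpl1 and Igf1r keep their direction under all 4, while Igf2r and Igfbp4 in green cells and Igfbp2 in red cells cross 0 on values as deposited.

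**Figure D4:**
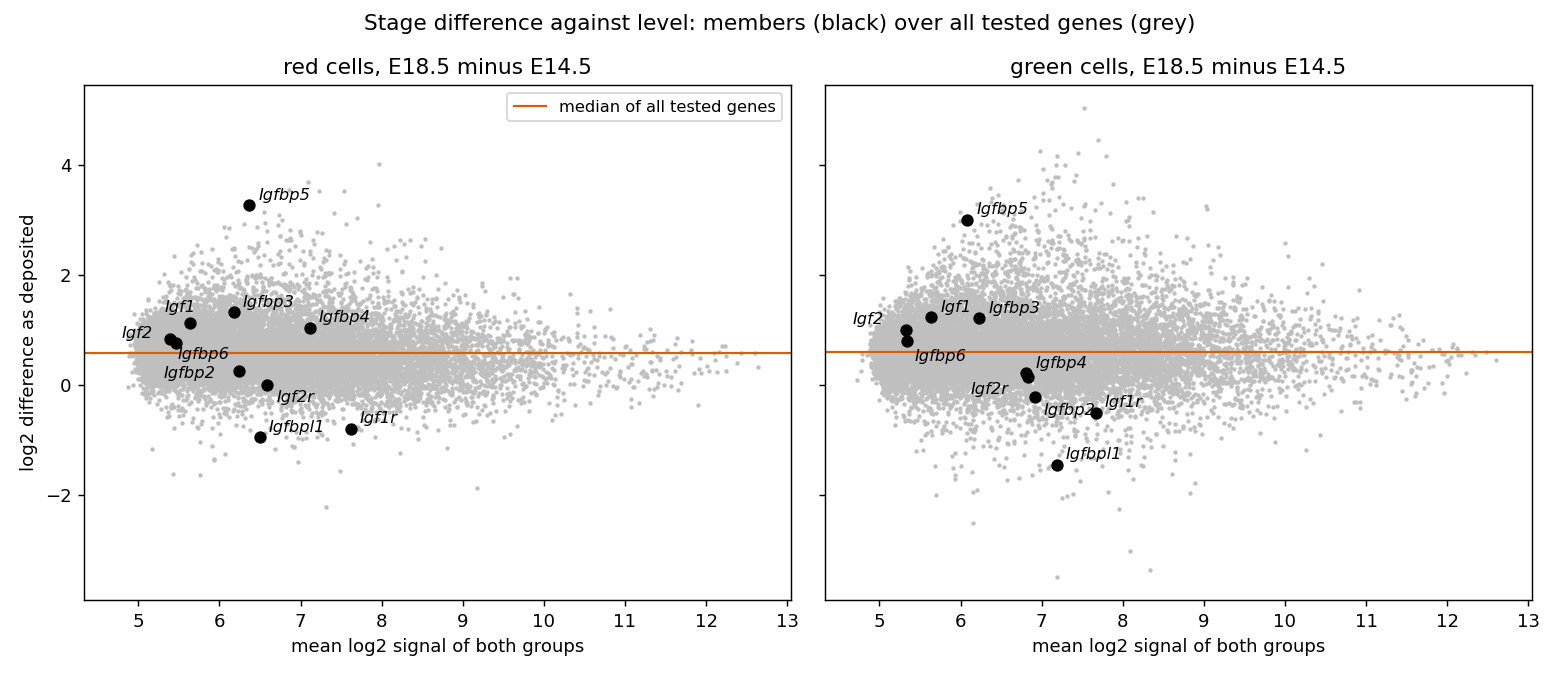
E18.5 minus E14.5 difference as deposited against the mean log2 signal of both groups, for the tested genes in grey and the 10 members in black, in red and in green cells. The line is the median of all tested genes, 0.60 in red and 0.61 in green cells, with Igfbp5 far above it and Igf1r and Igfbpl1 below 0.

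The shift between stages was of a like size at all levels: with genes in 4 bins of level, the median difference as deposited ran from 0.48 to 0.65 in red and from 0.58 to 0.63 in green cells. After equal medians the median difference over all tested genes was -0.05 in red and -0.09 in green cells.

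The rest of the pathway was followed in 3 lists with 61 genes, of which 53 had a row naming 1 gene and 50 were tested. In red against green at E18.5, 3 of 50 passed, where 0.613% of all tested genes were called. Irs4, an insulin receptor substrate, was at 6.01, 6.05 and 6.11 in red and 5.29, 5.67 and 5.36 in green cells, a difference of 0.62 ± 0.11 (SE, limma adjusted p = 0.0247). Stc1, a stanniocalcin that inhibits PAPP-A, was at 5.12, 5.18 and 5.49 in red and 5.91, 6.21 and 5.72 in green cells, a difference of -0.68 ± 0.14 (SE, limma adjusted p = 0.0352). Irs4 and Stc1 differed without overlap, as did 15.3% of all tested genes. Plagl1, an imprinted zinc finger factor, was at 6.69, 6.71 and 6.98 in red and 7.92, 8.67 and 8.15 in green cells, a difference of -1.45 ± 0.30 (SE, limma adjusted p = 0.0407). With any 1 array of these groups left out, 0 or 1 of the 50 genes passed. The Irs4 call was also lost with the mean of the gene's rows, at 0.43 (limma adjusted p = 0.0852). In double-labelled against green and against red 0 of 50 passed with limma, where 0.0361% and 0.0902% of all tested genes were called. At an unadjusted limma p under 0.05 there were 7 and 3 of the 50, against 949 and 752 of the 16635 tested genes. The median difference of the 50 genes was -0.10 for red against green (-0.01 over all tested genes). It was 0.01 for the double-labelled against green comparison (-0.00 over all) and 0.06 for that against red cells (0.02 over all).

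In red against green at E14.5, 4 of 50 passed, all higher in red, where 3.52% of all tested genes were called, and the median difference of the 50 was -0.02, against 0.00 over all genes. Grb14, an adaptor that binds and inhibits the insulin receptor, was at 6.69, 6.71 and 6.85 in red and 5.93, 5.52 and 5.48 in green cells (1.11 ± 0.15, limma adjusted p = 0.000935). Zim1, an imprinted zinc finger gene, was at 6.65, 6.75 and 6.81 in red and 5.64, 5.74 and 5.26 in green cells (1.19 ± 0.18, limma adjusted p = 0.00185). Both were apart on all arrays, as were 27.9% of all tested genes. Dlk1, an imprinted transmembrane relative of Notch ligands, was at 7.58, 7.21 and 6.99 in red and 6.04, 5.92 and 5.44 in green cells (1.46 ± 0.26, limma adjusted p = 0.00486). Pik3r1, a regulatory subunit of the kinase PI3K downstream of the receptor, was at 8.30, 8.24 and 8.25 in red and 8.00, 7.59 and 7.59 in green cells (0.53 ± 0.13, limma adjusted p = 0.0398). The Pik3r1 call was lost when any 1 of 5 of these 6 arrays was left out.

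Between stages, 7 of 50 were higher and 11 lower in E18.5 than in E14.5 red cells, with a list median of -0.02 against -0.05 over all genes, and 12 were higher and 12 lower in E18.5 than in E14.5 green cells, with medians of 0.00 and -0.09. Of all tested genes 9.9% were called higher and 13.3% lower in the red comparison, and 13% higher and 20.1% lower in the green one. Igf2bp3, an RNA-binding protein of fetal tissue that binds Igf2 mRNA, was at 6.80, 7.03 and 6.67 in E18.5 red and 7.88, 7.61 and 7.93 in E14.5 red cells. It was at 6.59, 6.60 and 6.78 in E18.5 green and 8.23, 8.18 and 8.17 in E14.5 green cells. With medians equal the differences were -1.62 ± 0.12 in red (SE, limma adjusted p = 9.19e-07) and -2.24 ± 0.12 in green cells (adjusted p = 2.58e-08). Igf2bp3 was thus lower at E18.5 on all arrays even as deposited.

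Zim1 was at 8.92, 9.18 and 8.98 in E18.5 red cells and 9.42, 9.24 and 9.10 in E18.5 green cells, above all E14.5 arrays. Its stage difference was 1.64 ± 0.17 in red (SE, limma adjusted p = 1.30e-05) and 3.01 ± 0.17 in green cells (adjusted p = 2.58e-08). Zim1 was the 1 of 50 list genes called for a red-green difference that changed with stage, by -1.42 ± 0.25 (SE, limma adjusted p = 0.0140). Of all tested genes 1.05% were called for that change. Without E14.5 green replicate 3 that adjusted p was 0.0502 with limma. Cdkn1c, an imprinted inhibitor of the cell cycle, was lower at E18.5 by a difference of -0.81 ± 0.13 in red (SE, limma adjusted p = 0.000533) and -1.21 ± 0.13 in green cells (adjusted p = 8.26e-06). The red difference of Cdkn1c as deposited was -0.16 and did not pass (limma adjusted p = 0.251). Pik3r1 was higher in E18.5 green cells by 1.05 ± 0.13 (SE, limma adjusted p = 2.34e-05). For Irs4 the E18.5 minus E14.5 difference in red cells was 0.86, or 0.35 with the mean of the gene's rows. Its E14.5 means, 4.54 in red and 4.64 in green cells, were under the filter level of 5.07, which it passed through its E18.5 levels, so the difference is given with no test, although Irs4 is among the 7 higher genes counted.

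The genes whose levels over the 15 arrays with medians equal were most like each of the 3 chosen members are given as a description, since the arrays share 2 stages that dominate a correlation. For Igfbp4 they were Ing2 (Pearson r 0.82), Trim62 (0.81), Gal3st1 (0.79), Sgpp2 (0.78) and Parm1 (0.77). For Igfbp5 they were Tspan17, Shc3, Zfp804a, Adap1 and Itpripl1, with r of 0.99 each. For Igfbpl1 they were H2az2 and Idh2 at 0.99 and Wbp1, Skida1 and Rcbtb1 at 0.98. Among the members themselves, over the same arrays, r was -0.98 between Igf1r and Igfbp5, -0.95 between Igfbp5 and Igfbpl1, 0.93 between Igf1r and Igfbpl1, 0.85 between Igfbp2 and Igfbpl1, and 0.32 between Igfbp4 and Igfbp5.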

How the data were processed

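Total RNA of FACS-sorted cells was measured on Affymetrix arrays. Per the labels, biotinylated cDNA was made from 10 ng with a Nugen Ovation whole-transcriptome kit. Per the submitters' processing notes Affymetrix Expression Console was used, and its version and algorithm are not given in the sources used here. The values deposited by the authors are log2 signals per transcript cluster (4.15 to 13.2), used as they are within a stage. Between stages, each array's median over the tested genes was made equal. No depth applies to arrays, and the 3 arrays per group limit the precision.

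Of 33794 clusters, 23521 named 1 gene, 1814 several and 8459 none. Genes in the dimmest 25% by mean over the arrays (under 5.07) were not tested. In R 4.3.3, limma 3.58.1 was fitted to group means of all 15 arrays (10 residual degrees of freedom, 13.9 after moderation), two-sided, with Benjamini-Hochberg adjustment over 16635 genes and a threshold of 0.05. The fit was tested on simulated data. Figures used Python 3.11.15 and matplotlib 3.10.9.

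The members, lists and tests were chosen with earlier results of these data known. All 10 members, up to 4 list genes per comparison by smallest adjusted p, the 5 genes most correlated with Igfbp4, Igfbp5 and Igfbpl1, and a few defining markers were named. Of the 8 marker lists, the results beside a member's difference are given. Deviations from group means of arrays with the same replicate number correlated at 0.49 to 0.67 between E18.5 double-labelled and red cells, so these numbers were taken as pairs. For E18.5 red and green cells the range was 0.06 to 0.46, and for E18.5 double-labelled and green cells 0.05 to 0.41. For E14.5 red and green cells it was 0.07 to 0.27. Between stages, where the embryos differ, it was -0.44 to 0.37 in red and -0.04 to 0.04 in green cells. The reported fits used no replicate block. In red against green at E18.5 they called 102 genes, and the fit with the block called 234. Alternatives were quantile normalization, other filters, mean of rows, fits without other groups, array weights, a trended robust prior, a replicate block, arrays left out, and for stages the deposited values and a comparison with genes of similar level.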

Additional observations from a re-analysis of the deposited data

Results flagged for a closer look

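Igfbp4 moved in opposite directions with stage in the 2 populations: with array medians equal it was higher in E18.5 than in E14.5 red cells (0.40) and lower in E18.5 than in E14.5 green cells (-0.47). Groups did not overlap in either, as for 39.4% of all tested genes in red and 61.2% in green cells. The gap between the 2 stage differences was 0.868 log2. The difference between them was not tested, since Igfbp4 led to the choice of the family, and on deposited values the green difference was 0.23. Zim1 was flagged because its red minus green difference changed between stages, with an E18.5 minus E14.5 change of -1.42 log2 (SE 0.25, limma adjusted p = 0.0140). Of all tested genes 1.05% were called for this change, and without E14.5 green replicate 3 the limma adjusted p of Zim1 was 0.0502.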

How the results depend on the processing

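The counts over the 7 tested members stayed within 1.5 times of the reported value under every setting run, except in double-labelled against green at E18.5. There 1 passed with array weights, a setting that called 1110 of all tested genes. The members behind a like count could change. On deposited values Igf2 and Igfbp6 entered the counts between stages in both colours, though Igfbp6, and Igf2 in green cells, are given with no test there. Igf2r was then lost in red and in green cells (limma adjusted p = 0.995 and 0.461), and Igfbp2 in green cells (0.181). Between stages, deposited values turned the green difference to 0.14 for Igf2r and to 0.23 for Igfbp4, and the red difference to 0.26 for Igfbp2. They raised the pathway genes called to 37 in red and 42 in green cells (18 and 24 with medians equal), as the shift between the stages' arrays adds to each difference. In red against green at E18.5 the pathway genes called were 3, against 1 with the 50% dimmest genes left out, 0 with the compared arrays alone, and 0 to 1 with each array left out. Over all genes the calls were 102, against 84, 6 and 51 to 100 under those settings. In double-labelled against green, where 0 pathway genes were reported, they were 6 with array weights, while the calls over all genes rose from 6 to 1110. In red against green at E14.5, where 4 pathway genes were reported, they were 9 with the compared arrays alone, 12 with array weights and 7 without the narrow-range arrays. Over all genes the calls there were 586 as reported and 1367, 2523 and 1434 under those settings. Between stages in red cells, where 18 pathway genes were reported, they were 11 with the compared arrays alone and 10 to 19 with each array left out (10 without E14.5 red replicate 2, 11 without E18.5 red replicate 3). Over all genes the calls were 3861 as reported, 2777 with the compared arrays alone and 2723 to 4060 with each array left out. For the change of the red-green difference with stage, where 1 pathway gene was reported, they were 2 with quantile normalization, 2 with no filter, 2 with a trended robust prior, 3 with the compared arrays alone, 5 with array weights, 5 without the narrow-range arrays, and 0 to 3 with each array left out (0 without E14.5 green replicate 3). Over all genes the calls were 175 as reported and, in the same order of settings, 206, 176, 170, 312, 644, 486 and 76 to 214. With the replicate number as a block the pathway genes called for that change were 4, with 343 called over all genes. In red cells between stages Igfbp2 passed with the block (limma adjusted p = 0.0450), as it did with quantile normalization (0.0384), no filter (0.0438), array weights (0.0400) and without E18.5 red replicate 2 (0.0218). Between stages the block joins arrays of different embryos by number alone, so the Igfbp2 result with the block has no pairing behind it. The block changed no other call on a tested member. The cause of these shifts was not tested, and the number of arrays limits them all.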
